A study of Mus musculus with 6 samples.

Results

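The dual-specificity MAP kinase phosphatases are the enzymes that switch MAP kinases off by removing phosphate from both the threonine and the tyrosine of their activation loop. Members of this family were taken by name from the table of counts, which holds 41721 genes: *Dusp1*, *Dusp4*, *Dusp5*, *Dusp6*, *Dusp7*, *Dusp8*, *Dusp9*, *Dusp10*, *Dusp14* and *Dusp16*. All 10 were found, each as a single row. Cells grown from the abdominal aortas of Pdk4fl/fl and Pdk4SMKO mice of 10 weeks, called MASMCs (mouse aortic smooth muscle cells), gave the counts. They were used after several passages. Pdk4fl/fl mice carry loxP sites around exons of *Pdk4* and no Cre. Pdk4SMKO mice carry the same floxed alleles with a tamoxifen-inducible *Myh11*-Cre, which acts in smooth muscle. Both kinds of mice received tamoxifen, and all 6 cultures, 3 per genotype, received Ang II (angiotensin II), at 1 μM for 48 h. The labels name the agent without dose or time. No untreated culture is in the series, so the response to Ang II itself was not measured.

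MAP kinases pass signals from growth factors, angiotensin receptors and stress to the nucleus through 3 main branches, ERK, JNK and p38. The phosphatases differ in where they act and which kinase they prefer. *Dusp1*, *Dusp4* and *Dusp5* encode nuclear enzymes whose genes are induced quickly by the signals they end. *Dusp6*, *Dusp7* and *Dusp9* encode cytoplasmic enzymes that act mainly on ERK. *Dusp8*, *Dusp10* and *Dusp16* encode enzymes that prefer JNK and p38, and *Dusp14* encodes a small atypical enzyme without the kinase-binding domain of the others. In smooth muscle, ERK activity accompanies proliferation and the synthetic state, and its transcriptional feedback through these genes limits how long a signal lasts.

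Depth ranged from 16526044 to 22481670 counts per library. *Pdk4*, the deleted gene, had 570, 639 and 421 counts in the Pdk4fl/fl libraries and 110, 182 and 141 in the Pdk4SMKO libraries, a log2 fold change of -2.34 (SE 0.22, edgeR quasi-likelihood adjusted p of 4.5e-06). The cultures differed broadly. Of 14085 genes tested, 59.3% were called, where a call needs an edgeR adjusted p under 0.05 together with a change of 2-fold or more. Lower in Pdk4SMKO cells were 26.5% (3733 genes) and higher 32.8% (4616 genes), a split that became 2390 and 6184 genes with library size alone as the scaling. Libraries of one genotype correlated at 0.981 or more and libraries of different genotypes at 0.748 or less. *Acta2*, a smooth muscle marker, was at 233 CPM (counts scaled to library size with TMM factors) in Pdk4fl/fl and 701 CPM in Pdk4SMKO cells. *Myh11*, the defining marker of contractile smooth muscle, was at 0.613 and 2.39 CPM. All 7 tested genes of a mesothelial marker list were higher. The summed level of the 8 genes of this list was 74.2 to 99.99 CPM in Pdk4fl/fl and 723 to 1325 CPM in Pdk4SMKO libraries. Of the 6 tested macrophage markers, 5 were higher and 1 was lower. The summed level of the 7 macrophage markers found by name was 21.4 to 38 against 9.71 to 30.5 CPM. *Cd68*, the lower gene, was at 31.2 and 4.29 CPM and made up most of this sum in Pdk4fl/fl. *C1qb*, one of the higher genes, had 0 counts in every Pdk4fl/fl library and 170, 69 and 42 in Pdk4SMKO libraries. Of 6 tested fibroblast markers 4 were higher and 1 lower, their sum being 625 to 854 against 5184 to 7104 CPM, with *Thy1* at 0 counts in every Pdk4fl/fl library. Of the smooth muscle markers 4 were higher, among them *Acta2* and *Myh11*, and 3 lower. The lower ones were *Tagln* (253 and 52.7 CPM), *Smtn* (280 and 57.5 CPM) and *Cnn1* (19.5 and 6.88 CPM). Both tested endothelial markers were lower, and of 5 proliferation markers 1 was lower. *Xist*, an RNA made in female cells, was at 0.200 to 0.378 CPM in Pdk4fl/fl and 15.7 to 26.8 CPM in Pdk4SMKO libraries, although the mice are described as male. The part of cell make-up and sex in the results below was not tested, and they cannot be told apart from genotype. In bulk RNA, fewer cells of a type and less RNA per cell cannot be told apart either.

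Of the 10 phosphatase genes, 9 passed the filter on low counts and 6 of these were called. *Dusp4*, *Dusp8* and *Dusp1* fell and *Dusp7*, *Dusp5* and *Dusp14* rose in Pdk4SMKO cells. *Dusp6*, *Dusp10* and *Dusp16* did not pass the test, and *Dusp9* was too scarce to be tested with the others. The share called, 66.7%, is close to the 59.3% of all genes, so the number of calls is not particular to the family. On adjusted p alone, 6 of the 9 passed again, against 79.1% of all genes. The median log2 fold change of the 9 was -0.19, beside 0.12 for all genes tested, and their median absolute log2 fold change was 1.99 beside 1.30. The genotypes did not overlap for 6 of the 9 tested genes, a smaller share than the 81.8% of all genes tested, and for *Dusp9*, where 3 counts in the highest Pdk4fl/fl library stood against 6 in the lowest Pdk4SMKO library. For each of these 7 an exact two-sided permutation test gave p = 0.1, the smallest that 3 cultures against 3 can give. The calls of the 6 genes held in each of the 6 fits that left out 1 library.

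**Figure D1:**
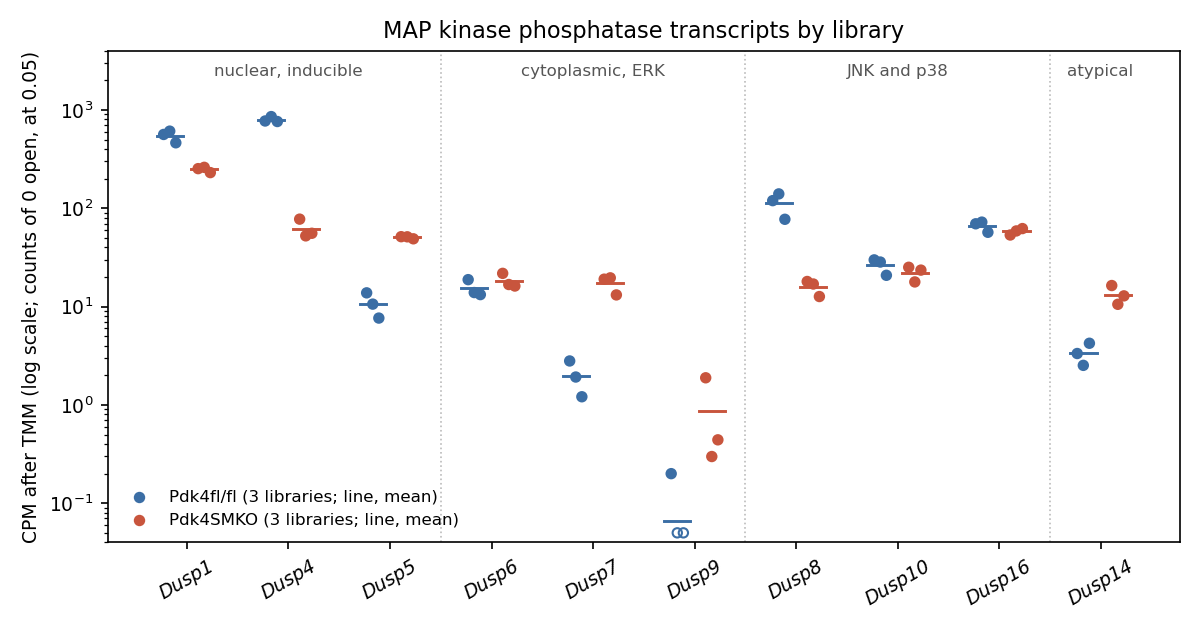
CPM after TMM normalization of each phosphatase gene, on a log scale, in the 3 Pdk4fl/fl (blue) and 3 Pdk4SMKO (red) libraries. Lines mark the mean and open points a count of 0. *Dusp4* lies at 763 to 856 CPM in Pdk4fl/fl and at 52.4 to 77.5 CPM in Pdk4SMKO libraries, while the libraries of both genotypes overlap for *Dusp6*, *Dusp10* and *Dusp16*.

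*Dusp4* encodes a nuclear phosphatase of ERK and JNK. In the C57BL/6NJ assembly, used for all positions of genes here, it occupies 34640937 to 34653507 on chromosome 8 (plus strand, MGP_C57BL6NJ_G0034027). It had 11584, 15588 and 10078 counts in Pdk4fl/fl and 1766, 1053 and 1135 in Pdk4SMKO libraries, or 797 ± 51.3 against 61.9 ± 13.7 CPM (SD, n = 3 each). Every Pdk4SMKO library was far below every Pdk4fl/fl library, a 12.9-fold difference of the means. Its log2 fold change of -3.69 (SE 0.18, edgeR quasi-likelihood adjusted p of 5.3e-08) was the most negative among the 9 and ran from -3.87 to -3.57 when single libraries were left out. In absolute size it exceeded that of 88.5% of all genes tested.

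*Dusp1* encodes the nuclear phosphatase that acts on p38, JNK and ERK and is an immediate early gene of stress and growth factor signaling. The gene spans 26736332 to 26739261 of chromosome 17 (minus strand, MGP_C57BL6NJ_G0023805). The Pdk4fl/fl libraries held 563, 609 and 463 CPM and the Pdk4SMKO libraries 253, 261 and 231 CPM. The replicates were close within each genotype and the genotypes did not overlap. The log2 fold change was -1.14 (SE 0.13, edgeR quasi-likelihood adjusted p of 2.5e-05), only slightly past the fold limit. With upper-quartile factors it was -0.92 and with library size alone -0.53, both short of a fold change of 2, although the adjusted p stayed at 0.000114 and 0.00579. The absolute size of this change was at the 44.7th percentile of all genes tested, so *Dusp1* moved less than most genes in these cultures.

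*Dusp5*, which encodes a nuclear phosphatase specific to ERK, moved the opposite way. Its position is chromosome 19, 54972444 to 54988696 (plus strand, MGP_C57BL6NJ_G0025661). The Pdk4fl/fl libraries held 207, 193 and 101 counts, or 13.8, 10.6 and 7.64 CPM. The Pdk4SMKO libraries held 1171, 1030 and 997 counts, or 51.4, 51.3 and 48.9 CPM, with a coefficient of variation of 2.77% that was the smallest of the tested members in either genotype. The means differed 4.73-fold, and the log2 fold change was 2.24 (SE 0.20, edgeR quasi-likelihood adjusted p of 2.8e-06).

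*Dusp8*, whose enzyme prefers JNK and p38 and is best known from brain and heart, fell with *Dusp1* and *Dusp4*. The gene spans 152645121 to 152661480 of chromosome 7 (minus strand, MGP_C57BL6NJ_G0033740). The Pdk4fl/fl libraries held 120, 140.0 and 77.3 CPM and the Pdk4SMKO libraries 18.0, 17.0 and 12.7 CPM. Replicate 3 was lowest in both genotypes, and its value in Pdk4fl/fl was still above every Pdk4SMKO library. The log2 fold change was -2.82 (SE 0.23, edgeR quasi-likelihood adjusted p of 1.6e-06), a 7.07-fold difference of the means.

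The promoters of the members were searched in RefSeq's sequences of the GRCm38.p6 assembly, from 250 bases before to 50 after each start. This assembly differs from that of the counts and was used for sequence alone. Of the 10 genes, 8 have such a promoter, *Dusp4* and *Dusp9* being the exceptions. On both strands, 3 motifs were searched: TGACGTCA, the cAMP response element bound by CREB and ATF factors, TGANTCA, the element of AP-1, and CCGGAAG, an element of ETS factors. TGACGTCA was found in *Dusp1*, once, and in *Dusp8*, at 2 places, and in none of the other 6 promoters. It occurs in 1.79% of all 32851 promoters of this length and in 3.09% of the 12270 promoters of tested genes. TGANTCA and CCGGAAG were found in none of the 8, against 7.81% and 8.86% of all promoters and 5.23% and 16.7% of those of tested genes. A further motif, the CArG box of serum response factor, was added after these results were seen and is held by 1.63% of all promoters. It was found at 2 adjoining places in *Dusp5* and in no other member. A match is a run of letters, and no binding was measured here. The 3 promoters with a match are shown 5′ to 3′ on the strand of the gene, with TGACGTCA in capitals in the first pair and the CArG boxes in the last. The element of *Dusp1* begins 143 bases before the start, those of *Dusp8* 107 and 63 bases before it, and the boxes of *Dusp5* 82 and 72 bases before it.
*Dusp1*, chr17:26508423-26508722, minus strand: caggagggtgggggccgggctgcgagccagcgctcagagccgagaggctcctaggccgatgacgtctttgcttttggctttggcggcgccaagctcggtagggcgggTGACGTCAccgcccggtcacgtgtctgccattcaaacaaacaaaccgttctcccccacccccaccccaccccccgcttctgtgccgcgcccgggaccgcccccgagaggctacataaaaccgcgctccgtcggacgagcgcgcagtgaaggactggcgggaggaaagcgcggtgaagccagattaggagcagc
*Dusp8*, chr7:142095235-142095534, minus strand: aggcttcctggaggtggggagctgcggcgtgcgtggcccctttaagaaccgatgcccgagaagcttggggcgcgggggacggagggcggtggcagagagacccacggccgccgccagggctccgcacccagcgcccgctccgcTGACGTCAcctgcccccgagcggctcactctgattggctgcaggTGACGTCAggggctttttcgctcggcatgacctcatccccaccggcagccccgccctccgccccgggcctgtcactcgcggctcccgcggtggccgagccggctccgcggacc
*Dusp5*, chr19:53528895-53529194, plus strand: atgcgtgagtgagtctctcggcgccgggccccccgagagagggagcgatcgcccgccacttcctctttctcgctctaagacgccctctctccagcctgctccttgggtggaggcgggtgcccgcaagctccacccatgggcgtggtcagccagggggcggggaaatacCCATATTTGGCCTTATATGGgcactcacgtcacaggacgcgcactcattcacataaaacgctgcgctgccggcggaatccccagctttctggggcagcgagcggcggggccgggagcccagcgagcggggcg

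The genes with TGACGTCA in these windows, *Dusp1* and *Dusp8*, were both lower in Pdk4SMKO cells, and *Dusp5*, with the CArG boxes, was higher. The promoters without any of the 4 motifs belong to *Dusp7* and *Dusp14*, which were higher, and to *Dusp6*, *Dusp10* and *Dusp16*, which were not called. The count of 8 promoters is too small for more than this description.

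Among the cytoplasmic ERK phosphatases, *Dusp7* rose. Its position is chromosome 9, 111141830 to 111159525 (plus strand, MGP_C57BL6NJ_G0035720). It was scarce in the Pdk4fl/fl libraries, with 42, 35 and 16 counts, and had 433, 394 and 268 counts in the Pdk4SMKO libraries. These correspond to 1.98 ± 0.796 against 17.3 ± 3.57 CPM (SD, n = 3 each), an 8.73-fold difference. Its log2 fold change of 3.11 (SE 0.30, edgeR quasi-likelihood adjusted p of 5.0e-06) was the most positive of the 9 and ran from 2.87 to 3.42 when single libraries were left out.

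*Dusp6*, the classical feedback phosphatase of ERK, whose transcript is widely read as a sign of ERK output, behaved differently from *Dusp7*. The gene spans 104566711 to 104570968 of chromosome 10 (plus strand, MGP_C57BL6NJ_G0018085). The Pdk4fl/fl libraries held 18.8, 13.9 and 13.2 CPM and the Pdk4SMKO libraries 21.8, 16.8 and 16.2 CPM, so the genotypes overlapped. The log2 fold change of 0.25 had a standard error of 0.19 and an adjusted p of 0.246 (edgeR's quasi-likelihood test). It ranged from 0.12 to 0.42 with each library left out and did not reach a fold change of 2 under any scaling, its highest value being 0.86 with library size alone (adjusted p of 0.00324). With upper-quartile factors it was 0.47 (adjusted p of 0.0493), so the adjusted p passed 0.05 under these 2 scalings.

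*Dusp9*, an X-linked gene known from placenta and kidney (chromosome X from 71539177 to 71543272, plus strand, MGP_C57BL6NJ_G0036309), was close to the limit of detection. It had 3, 0 and 0 counts in Pdk4fl/fl and 43, 6 and 9 in Pdk4SMKO libraries. A count of 3 corresponded to between 0.132 and 0.227 CPM in these libraries. Most of the counts came from Pdk4SMKO replicate 1. The ratio of the summed levels was 14.2 (exact 95% interval from 4.62 to 70.8, covering counting error only), and 5.74 (from 1.62 to 30.9) without that replicate. In a fit without the filter, in which 41.8% of 24025 genes were called, the log2 fold change was 3.68 (SE 0.90, edgeR quasi-likelihood adjusted p of 0.000373). Without Pdk4SMKO replicate 1 it was 2.43 and was not called (adjusted p = 0.147). This replicate also had the highest summed level of mesothelial markers, at 1325 CPM, and of macrophage markers, at 30.5 CPM, among the Pdk4SMKO libraries, and the part of these in the count of *Dusp9* was not tested.

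The remaining phosphatases of JNK and p38 differed little between genotypes. *Dusp10* (chromosome 1 from 196756655 to 196830431, plus strand, MGP_C57BL6NJ_G0017306) had 29.9, 28.4 and 20.8 CPM in Pdk4fl/fl and 25.1, 17.8 and 23.5 CPM in Pdk4SMKO libraries. Its log2 fold change was -0.25 (SE 0.19, edgeR quasi-likelihood adjusted p of 0.235). *Dusp16* (chromosome 6 from 142772733 to 142861176, minus strand, MGP_C57BL6NJ_G0031849) had 69.5, 72.3 and 57 CPM against 53.5, 58.8 and 62.2 CPM, a log2 fold change of -0.19 (SE 0.13, edgeR quasi-likelihood adjusted p of 0.211). For both genes the genotypes overlapped, and the sign of the difference depended on the scaling: with library size alone it was 0.35 for *Dusp10* and 0.41 for *Dusp16*. The adjusted p of edgeR's quasi-likelihood test was under 0.05 for *Dusp16* with library size alone (0.0199). Without Pdk4fl/fl replicate 3 it was 0.0459 for *Dusp10* and 0.0313 for *Dusp16*, at log2 fold changes of -0.41 and -0.30. Both also overlap a counted gene on the other strand, with 10 to 24 counts per library inside *Dusp10* and 0 to 20 inside *Dusp16*, and whether the counting used strand is not known. The other 8 members overlap no counted gene.

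*Dusp14*, the small phosphatase without the kinase-binding domain, rose. Its position is chromosome 11, 88031239 to 88054964 (minus strand, MGP_C57BL6NJ_G0019257) and had 50, 46 and 56 counts in the Pdk4fl/fl libraries. In the Pdk4SMKO libraries it had 373, 212 and 262 counts, highest in replicate 1. The levels were 3.37 ± 0.856 and 13.3 ± 2.93 CPM (SD, n = 3 each), and the log2 fold change was 1.99 (SE 0.26, edgeR quasi-likelihood adjusted p of 4.6e-05).

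**Figure D2:**
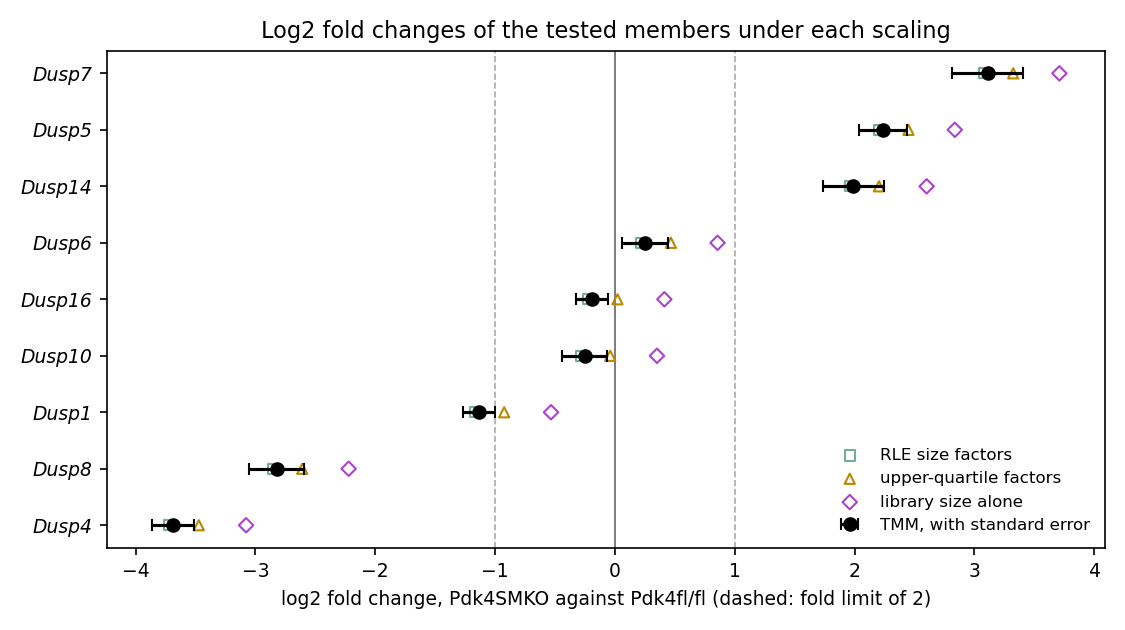
Log2 fold change of the 9 tested members, Pdk4SMKO against Pdk4fl/fl, with TMM scaling (black, with the standard error) and 3 other scalings (open symbols). Dashed lines mark a fold change of 2, and only *Dusp1* crosses one of them between scalings, from -1.14 to -0.53.

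The scaling matters for the smaller changes because it moves all genes together. The median log2 fold change of all genes tested was 0.12 with TMM, 0.09 with RLE factors, 0.33 with upper-quartile factors and 0.72 with library size alone. A change of scaling shifts each gene and this median by nearly the same amount. Values relative to the median must therefore be alike under all scalings. They give the place of a member among all genes and do not test the scaling. *Dusp1* was 1.25 to 1.26 below the median gene on the log2 scale, *Dusp6* was 0.13 to 0.14 above it, and *Dusp10* and *Dusp16* were 0.37 and 0.31 below it under each of the 4 scalings.

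Compared per length, as CPM per kilobase of the gene length in the table, the order of the members was not the same in both genotypes. In Pdk4fl/fl cells *Dusp4* was first, at 291 ± 18.7 CPM per kilobase (SD, n = 3), followed by *Dusp1* at 202 ± 27.6 and *Dusp8* at 23.0 ± 6.56, with no overlap between neighbours. *Dusp10* and *Dusp16*, at 8.66 and 8.499 CPM per kilobase, overlapped, as did *Dusp6* and *Dusp5* at 5.48 and 4.32. *Dusp14*, at 1.73, *Dusp7*, at 0.705, and *Dusp9*, at 0.0245, closed the order. In Pdk4SMKO cells *Dusp1* was first, at 92.0 ± 5.84 CPM per kilobase (SD, n = 3). *Dusp4* at 22.6 ± 4.99 and *Dusp5* at 20.4 ± 0.567 overlapped. Then *Dusp16*, *Dusp10*, *Dusp14*, *Dusp6* and *Dusp7* lay between 7.46 and 6.15 CPM per kilobase, each overlapping the next. *Dusp8*, behind only *Dusp4* and *Dusp1* in Pdk4fl/fl cells, was above only *Dusp9*, at 3.26 ± 0.581.

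The summed level of the 10 genes per length was 545 ± 53.2 CPM per kilobase (SD, n = 3) in Pdk4fl/fl and 173 ± 12.2 in Pdk4SMKO cells. *Dusp4* made up 51.3, 52.4 and 56.7% of this sum in the Pdk4fl/fl libraries and 15.3, 11.1 and 12.6% in the Pdk4SMKO libraries. *Dusp1* made up 37.0% ± 1.69 and 53.3% ± 2.83 (SD, n = 3 each), so its share was higher where its level was lower. *Dusp5* made up 0.788% ± 0.202 and 11.8% ± 0.559 (SD, n = 3 each). Together the 3 nuclear genes held 91.2% of the sum in Pdk4fl/fl and 78.1% in Pdk4SMKO cells. The cytoplasmic ERK phosphatases held 1.14% and 7.49%, and the JNK and p38 phosphatases 7.31% and 10.4%. These shares are descriptions and were not tested.

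**Figure D3:**
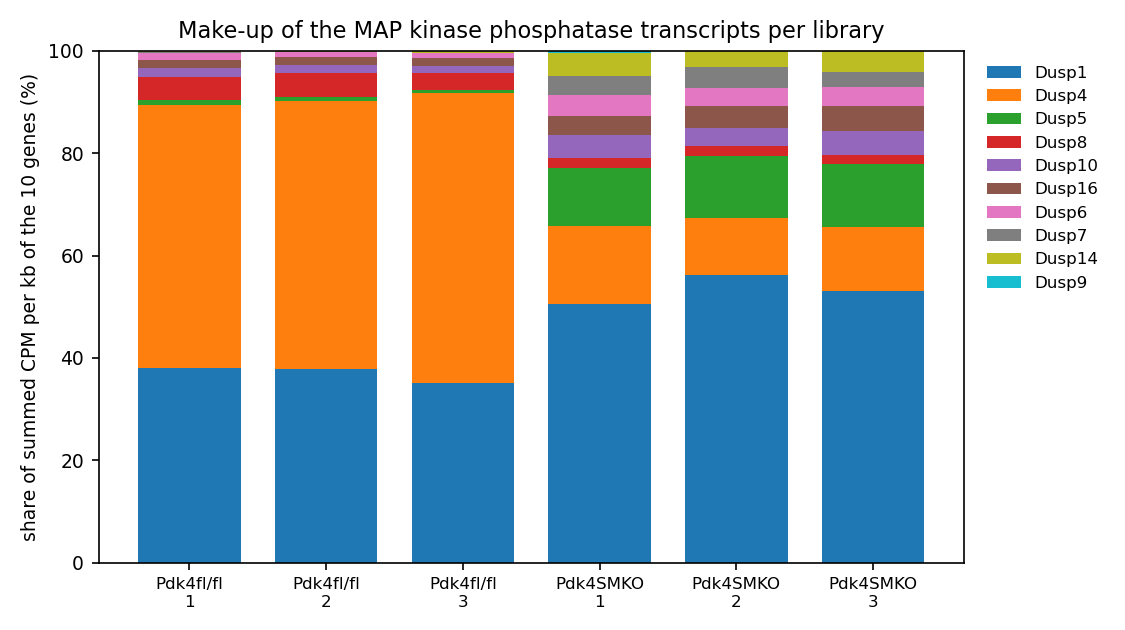
Share of each member in the summed CPM per kilobase of the 10 genes, in percent, for each of the 6 libraries. *Dusp4* takes 51.3 to 56.7% in Pdk4fl/fl and 11.1 to 15.3% in Pdk4SMKO libraries, and *Dusp5* takes 11.2 to 12.3% in the latter.

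Ratios of a pair of members inside 1 library do not depend on how libraries are scaled to each other. Of 5 ratios, chosen after the fold changes were known, 4 separated the genotypes. *Dusp5* per *Dusp4*, both per length, was 0.0198, 0.0137 and 0.0111 in Pdk4fl/fl and 0.735, 1.08 and 0.973 in Pdk4SMKO libraries, a mean difference of 5.99 on the log2 scale. Among the nuclear genes *Dusp4* per *Dusp1* was 1.35, 1.38 and 1.62 against 0.302, 0.198 and 0.238. In the cytoplasmic group *Dusp7* per *Dusp6* was 0.149, 0.138 and 0.0912 against 0.870, 1.17 and 0.810. In the JNK and p38 group *Dusp8* per *Dusp16* was 2.75, 3.10 and 2.17 against 0.538, 0.461 and 0.326. *Dusp10* per *Dusp16* overlapped between genotypes, at 0.936 to 1.10 and 0.776 to 1.20. Since the pairs were chosen with their fold changes known, the separation is a description. An exact two-sided permutation test of the log2 ratios gave p = 0.1 for each of the 4 and 0.8 for *Dusp10* per *Dusp16*. It cannot decide the matter, because of that choice and because 0.1 is the smallest p these cultures can give.

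**Figure D4:**
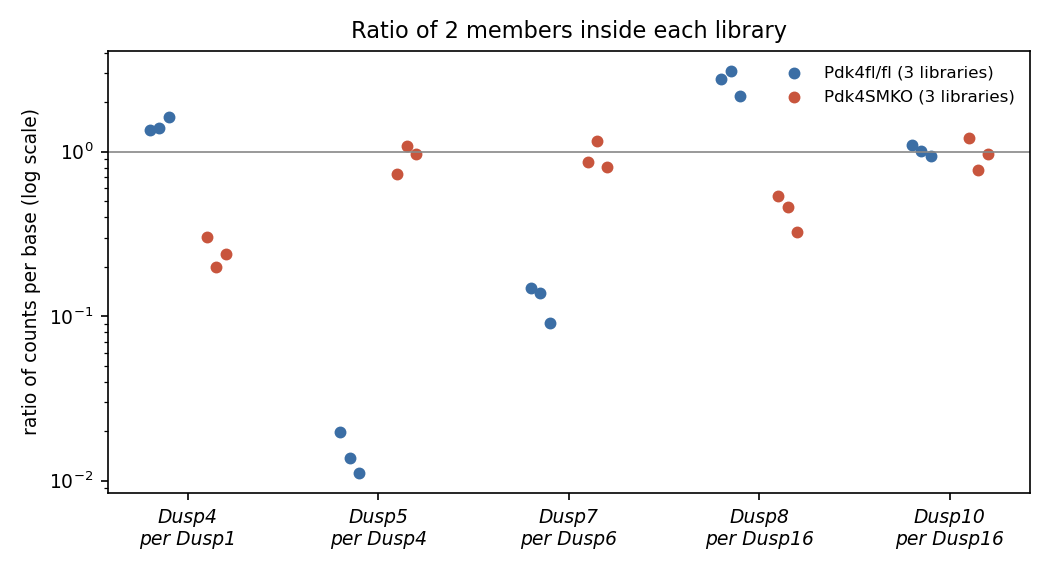
Ratio of 2 members inside each library, in counts per base, on a log scale, for Pdk4fl/fl (blue) and Pdk4SMKO (red). *Dusp5* per *Dusp4* lies at 0.0111 to 0.0198 and 0.735 to 1.08, and the genotypes overlap only for *Dusp10* per *Dusp16*.

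Within a genotype the members varied to different degrees. Over the 9 tested genes the coefficient of variation had a median of 19.8% in Pdk4fl/fl and 17.3% in Pdk4SMKO cells, and it was widest for *Dusp7* in Pdk4fl/fl, at 40.2%. Pdk4fl/fl replicate 3 had the lowest level of its genotype for 8 of the 10 members. Pdk4SMKO replicate 1 had the highest level of its genotype for 7 of the 10.

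The kinases that these phosphatases act on were measured in the same libraries. Of the 11 genes of the ERK module, all were tested, 0 were lower and 3 were higher, or 27.3% called beside 59.3% of all genes tested. Those called included *Araf*, which encodes a RAF kinase (log2 fold change 1.34), and *Ksr1*, which encodes a scaffold of the module (1.39). *Mapk3*, which encodes ERK1, was at 196 ± 5.5 and 114 ± 4.37 CPM (SD, n = 3 each). Its log2 fold change of -0.78 had an adjusted p of 6.8e-05 in edgeR's quasi-likelihood test and did not reach a fold change of 2. On adjusted p alone, 5 genes of the module were lower and 4 higher, where 79.1% of all genes tested passed.

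Of the 24 genes of the JNK, p38 and ERK5 modules, 22 were tested, of which 5 were lower and 7 higher, or 54.5% called beside the same 59.3%. *Mapk13*, the p38 isoform of epithelia, had 0, 1 and 0 counts in Pdk4fl/fl and 368, 254 and 243 in Pdk4SMKO libraries, a ratio of 635 (exact 95% interval from 114 to 25106, counting error only). *Mapk14*, the main p38 kinase, rose (log2 fold change 1.44), and *Mapk12*, another p38 isoform, fell (-1.33). *Map2k6*, an activator of p38, had the most negative log2 fold change of the list, -4.44, at 15.3 ± 2.90 and 0.699 ± 0.127 CPM (SD, n = 3 each). *Mapkapk2*, a kinase activated by p38, was at 139 ± 4.53 and 278 ± 17.4 CPM (SD, n = 3 each). Its change was just at the limit, at 1.00 on the log2 scale. The log2 fold changes of *Mapk8* and *Mapk9*, the main JNK genes, were -0.95 and 0.31, and those of *Mapk7* and *Mapk11*, for ERK5 and p38β, were 0.19 and 0.60. None of the latter 4 was called. *Mapk10*, the neuronal JNK gene, had at most 7 counts and was not tested.

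Genes of ERK feedback and output were called in both directions, while most immediate early genes, which are induced together with *Dusp1*, were lower. Of 14 tested genes of ERK feedback and output, 1 was lower and 4 were higher, or 35.7% called beside 59.3% of all genes. *Ccnd1*, the cyclin of the first growth phase, had the highest log2 fold change, 3.78, at 36.6 ± 5.46 and 502 ± 148 CPM, and *Fosl1*, an AP-1 subunit, had the lowest, -3.53, at 389 ± 83.0 and 33.7 ± 10.2 CPM (SD, n = 3 each). The fits that left out 1 library called 1 to 3 genes of this list lower and 5 to 6 higher. The highest number lower, 3, was found without Pdk4SMKO replicate 1. Of 15 immediate early genes, 9 were lower and 4 higher, or 86.7% called beside 59.3% of all genes (26.5% lower and 32.8% higher). Their median log2 fold change was -2.02, beside 0.12 for all genes. The summed level of the 15 was 18603 to 24248 CPM in Pdk4fl/fl and 1936 to 2593 CPM in Pdk4SMKO libraries. *Jun* had the lowest log2 fold change (-6.28) and *Klf2* the highest (4.11). *Klf2* was scarce in the Pdk4fl/fl libraries, with 14, 10 and 5 counts, against 235, 309 and 141 in Pdk4SMKO libraries. *Egr1*, a transcription factor, was at 8655 ± 1297 CPM in Pdk4fl/fl and 601 ± 135 in Pdk4SMKO cells (SD, n = 3 each). The log2 fold change of *Dusp1*, -1.14, was smaller in size than those of the 9 lower genes of this list.

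Other phosphatases were called in both directions, although the other MAP kinase phosphatases were mostly lower in Pdk4SMKO cells. Of 6 tested genes of other MAP kinase phosphatases, 1 was lower, *Ppp2ca* (log2 fold change -1.35), a catalytic subunit of PP2A. *Ptpn5* (3.48) was higher, so 33.3% were called. *Ptpn5* was scarce, with 6, 3 and 2 counts in Pdk4fl/fl and 48, 69 and 54 in Pdk4SMKO libraries. On adjusted p alone 4 genes of this list were lower and 1 higher, where 79.1% of all genes tested passed. The median log2 fold change of the 6 was -0.61, beside 0.12 for all genes. The summed level of the list was 782 to 881 against 403 to 437 CPM, with *Ppp2ca* at 511 and 201 CPM. Of 11 tested genes of other dual-specificity phosphatases, 2 were lower and 4 higher, or 54.5% called, and 4 were lower without Pdk4SMKO replicate 1. The shares of 33.3% and 54.5% stand beside 59.3% of all genes. *Dusp11*, which acts on RNA, fell (-1.35). *Dusp26* had 18, 45 and 24 counts in Pdk4fl/fl and none in any Pdk4SMKO library, at least 12.8-fold lower when 3 counts per library are taken as the floor. *Dusp28* had 2, 0 and 0 counts against 58, 58 and 43, a ratio of 58.4 (exact 95% interval from 15.9 to 486, counting error only). *Dusp2*, the remaining nuclear MAP kinase phosphatase, was scarce, with 18, 17 and 3 counts in Pdk4fl/fl and 3, 0 and 0 in Pdk4SMKO libraries, and did not pass the filter.

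**Figure D5:**
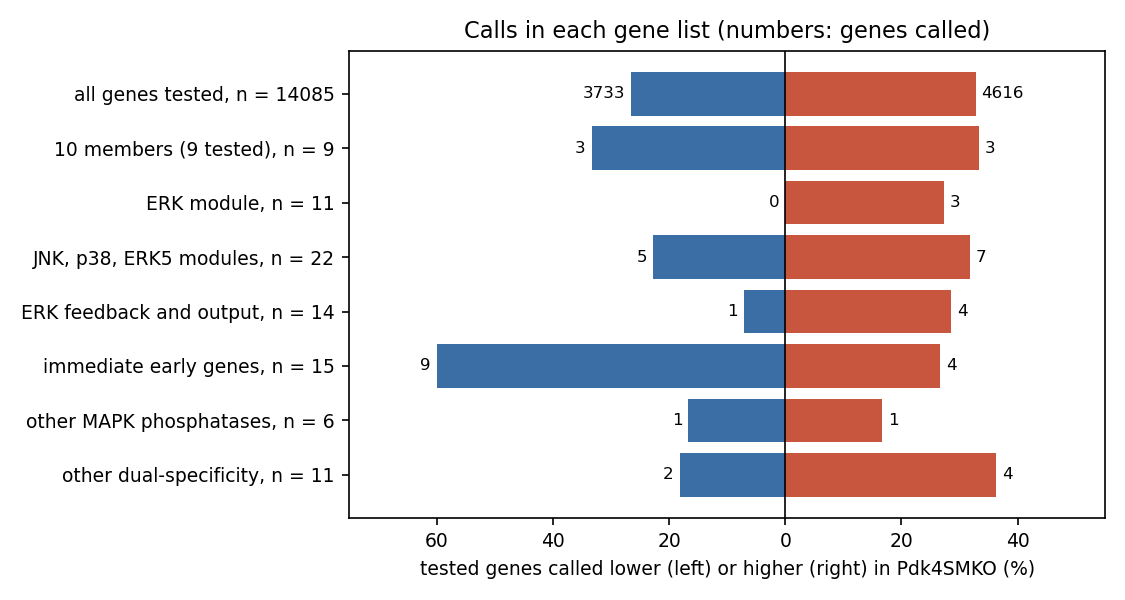
Percent of the tested genes of each list called lower (blue, left) or higher (red, right) in Pdk4SMKO cells, with the number of genes beside each bar. The 9 tested members, with 3 lower and 3 higher, stand beside all 14085 genes tested, with 3733 lower and 4616 higher.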

How the data were processed

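RNA of 6 cultures was sequenced, and the authors deposited raw counts per gene beside each gene's length. The gene identifiers and positions belong to the C57BL/6NJ assembly, although the labels name GRCm39. The aligner, the counting program and the use of strand are not given in the sources used here, and the paper and the labels name different library kits. Groups follow the genotypes that the labels give. The paper's legends call the 3 cultures of a genotype biological replicates. Neither they nor the labels state whether the cultures came from separate mice, so p-values measure the spread between these cultures.

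The main test was edgeR's quasi-likelihood test (edgeR 4.0.16, R 4.3.3) after filterByExpr and TMM scaling, with genotype as the only term. P-values of the 14085 genes tested were adjusted by Benjamini-Hochberg. The standard error is the absolute log2 fold change divided by the square root of F. Intervals and the floor of 3 counts cover counting error only. Replicates numbered alike were checked for shared deviations and were not treated as pairs. The fits were tested on simulated data. The simulation changed few genes, by known folds, so it cannot test the scaling where most genes are called, as here. The members, gene lists, ratios and motifs were chosen with earlier results of these data known. Named genes are the members, *Pdk4*, the MAP kinases, *Dusp2* and 3 kinds of gene from each list. These are the called genes with the lowest and highest log2 fold change and the gene with the highest CPM over both genotypes. *Araf*, *Ksr1*, *Myh11*, *Tagln*, *Cnn1* and *Xist* were added after their values were seen. For *Spry3*, *Map3k20*, *Ppm1b*, *Styx* and *Lyz2* no row carries the name, and they were not used here. Some genes that this rule would name are not reported here. Alternatives tried were 3 other scalings (RLE, upper-quartile, library size), DESeq2 1.42.0, 2 other filters, no fold limit, the replicate block and leaving out each library. Protein sequences were not used here.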

Additional observations from a re-analysis of the deposited data

How the results depend on the processing

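The calls of *Dusp4*, *Dusp5*, *Dusp7*, *Dusp8* and *Dusp14* were made under every alternative tried, and the numbers of members called stayed within 1.5 times. The log2 fold change of *Dusp1* fell short of the fold limit with upper-quartile factors (-0.92) and library size alone (-0.53). The sign turned for *Dusp10* with library size alone (0.35) and for *Dusp16* with upper-quartile factors (0.022) and library size alone (0.41), none of them called. That of *Dusp9*, from the fit without a filter, ranged from 2.43, not called, to 7.10 with each library left out, fits chosen after seeing the data. The summed level per length was 442 and 213 CPM per kilobase in Pdk4fl/fl and Pdk4SMKO cells with library size alone, against 545 and 173. The causes of these changes were not tested. Without the fold limit, 79.1% of all genes tested were called. Of the ERK module 5 genes were then lower and 4 higher. Of the JNK, p38 and ERK5 modules 9 were lower and 11 higher. Of ERK feedback and output 4 were lower and 7 higher, and of other MAP kinase phosphatases 4 were lower and 1 higher. With library size alone, 2390 of all genes tested were lower and 6184 higher. In the JNK, p38 and ERK5 modules 3 genes were then lower and 10 higher. In ERK feedback and output 1 was lower and 7 were higher. Of other MAP kinase phosphatases 0 were lower and 1 higher, and of other dual-specificity phosphatases 1 was lower and 5 higher. With at least 10 counts in every library, 2 immediate early genes and 0 other MAP kinase phosphatases were higher and 1 other dual-specificity phosphatase was lower, as fewer genes were tested. Without a filter, 2 other MAP kinase phosphatases were higher and 4 other dual-specificity phosphatases lower, and with DESeq2 the former number was 2 as well. Without Pdk4SMKO replicate 1, 3 genes of ERK feedback and output and 4 other dual-specificity phosphatases were lower, the highest of ranges of 1 to 3 and 2 to 4 over the fits that left out a library. Samples with the same replicate number deviated together only weakly (r = 0.040, 0.060 and 0.18), and Pdk4fl/fl replicate 1 correlated best with Pdk4SMKO replicate 2. With the replicate block, 3 members were lower and 3 higher, and *Dusp4* had a log2 fold change of -3.71, so no call of a member changed. Genes near the floor, *Dusp9* foremost, are limited by depth.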
